A study of Mus musculus with 12 samples.

Results

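The 34 genes examined here code for the steps of glycolysis and lactate export, for targets of the hypoxia-inducible factors, and for the factors themselves and the enzymes that sense oxygen for them. They were chosen by name, with earlier results of these data known. Each gene was read from the brightest of the probe sets assigned to that gene alone, and 30 of the 34 were measured in this way, of 22180 genes on the array in all. Gpi1 and Eno1, the enzymes for the second and the ninth step of glycolysis, had no such probe set in the table. Aldoa shared its probe set with Aldoart1, and Ankrd37 shared its probe set with Lrp2bp, so these genes were not analysed here.

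The cells were precursors from the inguinal adipose tissue of mice, a subcutaneous fat depot, with the genotype R26Cre/Prdm16floxEx9, and were made into adipocytes in culture. Prdm16 codes for a zinc finger protein that is best known for specifying brown and beige fat cells. In the growth phase the cells were given ethanol (EtOH) or 1 uM 4-hydroxytamoxifen (4OHT), the ligand used to activate tamoxifen-dependent Cre, for 3 days. All were then differentiated with isobutylmethylxanthine, indomethacin, dexamethasone, insulin and T3, and the groups named EtOH_Rosi and 4OHT_Rosi also had rosiglitazone at 1 uM, a drug that activates the nuclear receptor PPARγ. Each of the 4 groups has 3 Affymetrix arrays, 12 in all, and the ethanol-treated controls carry the same alleles as the treated cells. No arrays of cells without the floxed allele were analysed here, so 4-hydroxytamoxifen itself, active Cre and loss of Prdm16 cannot be told apart. The labels do not say that the 3 arrays of a group came from separate cultures, so the p-values reflect array-to-array spread that could be technical only.

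Glycolysis splits glucose into pyruvate. Glucose enters through transporters, is phosphorylated by hexokinase, is committed by phosphofructokinase, and leaves as lactate when lactate dehydrogenase reduces the pyruvate. The hypoxia-inducible factors, Hif1a and Epas1, are made at all times and are marked for destruction by the EGLN prolyl hydroxylases when oxygen is present. When oxygen is low they persist, pair with ARNT and bind DNA. Between them, though not each for every gene, they raise the transcription of most glycolytic genes, of Vegfa and of their own hydroxylases. In adipose tissue these programs are known to respond to tissue growth and blood supply, and fat cells use glycolysis to make the glycerol backbone of triglycerides.

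All values are log2 probe set values, as the authors deposited them, so that a difference of 1 is a doubling. Array medians lay between 5.97 and 6.05, and arrays of the same group correlated at 0.996 to 0.998 over all genes, against 0.981 to 0.996 for arrays of different groups. On the third principal component, which held 5.67% of the variance, array 4OHT_Rosi 3 had a score of 16.03 and was set off from the rest, whose scores ran from -8.95 to 7.98. Prdm16 itself read 6.55, 6.49 and 6.84 on the EtOH arrays, 6.33, 6.45 and 6.59 on 4OHT, 7.20, 7.46 and 7.44 on EtOH_Rosi and 6.63, 6.70 and 6.63 on 4OHT_Rosi. It was lower in 4OHT_Rosi than in EtOH_Rosi (-0.71, adjusted p = 0.000646) and did not pass the test between 4OHT and EtOH (-0.17, adjusted p = 0.455), where the arrays of the groups overlapped. The files used here do not place its probes inside or outside the floxed part of the gene. All 13 measured adipocyte markers were at or above the median level of all genes in the study (6.60), and their mean level was 12.15 to 12.24 on the EtOH arrays and 12.38 to 12.52 on the arrays with rosiglitazone. Of the 30 genes measured, 29 were at or above that median level and Car9 was below it.

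Most of the promoters hold the letters of the short core that the hypoxia-inducible factors recognise. In the 250 bases before the RefSeq start sites (mouse build GRCm38.p6), the core ACGTG or GCGTG was found on either strand in 26 of the 28 measured genes with an entry (92.9%), against 41.5% of all 27025 genes in the table. Counted by motif, ACGTG was in 64.3% of these genes and 18.5% of all, and GCGTG in 64.3% and 30.9%. Many of the genes were listed as known targets of these factors. A higher share could follow from that choice and is not an independent result. A gene with more start sites has more windows in which a match can fall. Counted by window, the share with either core was 78.0% of the 41 windows of these genes and 38.6% of all 32851. These windows were also richer in G and C, with a median of 60.0% against 52.4%, and the part of this in the shares was not tested; a match describes the letters of a window and not a bound site. Eno2 and Tpi1 had no match in any window, and 2 genes, Ndrg1 and Epas1, had no entry. The textbook PPARγ element, AGGTCA repeated in the same direction after 1 base of any kind, was in none of the windows of these genes and in 0.0335% of all windows. A palindromic CACGTG holds ACGTG on both strands and counts as 2 matches. Promoters are shown for Egln3, Bnip3 and Adm, whose differences with rosiglitazone were among the largest called, for Slc2a1, which fell with 4-hydroxytamoxifen in both states, and for Ldha, whose first window has 5 matches. Each is written 5′ to 3′ on the strand of the gene and ends at the base before the start, with ACGTG or GCGTG, or the same letters read on the other strand, in capitals.
Slc2a1 chr4:119108495-119108744 (+): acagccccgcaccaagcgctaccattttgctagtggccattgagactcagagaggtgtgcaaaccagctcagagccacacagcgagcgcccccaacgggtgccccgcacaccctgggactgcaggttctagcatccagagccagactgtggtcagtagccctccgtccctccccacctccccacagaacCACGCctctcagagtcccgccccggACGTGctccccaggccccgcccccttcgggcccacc
Ldha chr7:46845554-46845803 (+): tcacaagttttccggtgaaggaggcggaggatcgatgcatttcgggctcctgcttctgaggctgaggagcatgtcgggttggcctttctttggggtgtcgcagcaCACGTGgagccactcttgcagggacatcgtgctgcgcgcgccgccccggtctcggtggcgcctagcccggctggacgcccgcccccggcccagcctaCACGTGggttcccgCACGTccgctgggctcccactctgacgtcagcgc
Bnip3 chr7:138909507-138909756 (-): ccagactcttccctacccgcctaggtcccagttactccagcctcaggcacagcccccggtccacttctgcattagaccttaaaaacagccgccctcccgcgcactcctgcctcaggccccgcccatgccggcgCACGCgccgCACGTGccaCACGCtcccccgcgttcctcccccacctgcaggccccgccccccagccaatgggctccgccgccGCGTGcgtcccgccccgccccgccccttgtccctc
Egln3 chr12:54203875-54204124 (-): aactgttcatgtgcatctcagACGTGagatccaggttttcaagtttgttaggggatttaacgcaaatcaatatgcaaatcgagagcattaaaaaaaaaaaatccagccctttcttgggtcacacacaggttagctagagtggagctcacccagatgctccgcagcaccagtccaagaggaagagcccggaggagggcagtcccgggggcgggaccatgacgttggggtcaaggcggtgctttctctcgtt
Adm chr7:110627407-110627656 (+): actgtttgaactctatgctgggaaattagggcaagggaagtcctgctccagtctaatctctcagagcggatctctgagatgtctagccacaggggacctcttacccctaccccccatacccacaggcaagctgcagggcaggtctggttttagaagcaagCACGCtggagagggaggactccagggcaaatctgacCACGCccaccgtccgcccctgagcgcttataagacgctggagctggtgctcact
In the Egln3 window the only match begins 229 bases before the start, whereas in Slc2a1 the matches lie 36 and 61 bases before it. The Bnip3 window holds 2 ACGTG and 3 GCGTG matches, and that of Adm holds 2 GCGTG matches, 54 and 90 bases before the start.

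Most of glycolysis rose with rosiglitazone. Between EtOH_Rosi and EtOH, 21 of the 30 genes rose and 6 fell at an adjusted p under 0.05, where 14.4% of all genes rose and 16.3% fell. Of genes at or above the median level, 24.6% rose and 27.4% fell. In cells that had been given 4-hydroxytamoxifen, 20 rose and 5 fell (4OHT_Rosi against 4OHT), where 11.6% of all genes rose and 12.1% fell, and 20.4% and 20.7% of the brighter genes. The median difference of the 30 genes was 0.35 in the first comparison and 0.27 in the second, and that of all genes was 0.013 and 0. These comparisons share no array, and 19 genes rose in both, which is 90.5% of the 21 and 95% of the 20. The share of all genes that rose in both was not counted. Whatever the adjusted p, 76.7% of the 30 genes were above 0 in both, against 37.6% of all genes. Eno2, Adm, P4ha1, P4ha2 and Epas1 fell in both. Of the 17 measured genes of glycolysis and lactate, 14 rose in each comparison and Eno2 alone fell in either, whereas the 9 measured hypoxia targets split into 5 that rose and 3 that fell without 4-hydroxytamoxifen, and 4 and 3 with it. Without any one of the arrays 4OHT 1, 4OHT 2, 4OHT 3, EtOH_Rosi 2, 4OHT_Rosi 1 and 4OHT_Rosi 2, 3 rather than 5 genes fell in the second comparison, and without 4OHT_Rosi 3, the array set off from the rest, 20 rose and 6 fell.

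Markers of other cells moved in the same comparisons. Of 13 measured progenitor and fibroblast markers 11 fell with rosiglitazone in both states, and their mean level was 10.81 to 10.99 on the arrays without it and 9.83 to 10.21 with it. All 11 proliferation markers fell in the first comparison and 9 in the second. Of 10 endothelial markers 9 and 8 fell, and of 12 macrophage and leukocyte markers 9 and 6 fell. None of these marker lists had a member that rose with rosiglitazone. Of genes at or above the median level, 27.4% fell in the first comparison and 20.7% in the second. Of 13 adipocyte markers 6 rose (46.2%) and 2 fell in the first, and 5 rose (38.5%) and 2 fell in the second. The brighter genes that rose were 24.6% and 20.4%. In cultured cells measured in bulk, fewer cells of a type and less RNA per cell cannot be told apart, and the part of these shifts in the results was not tested.

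**Figure D1:**
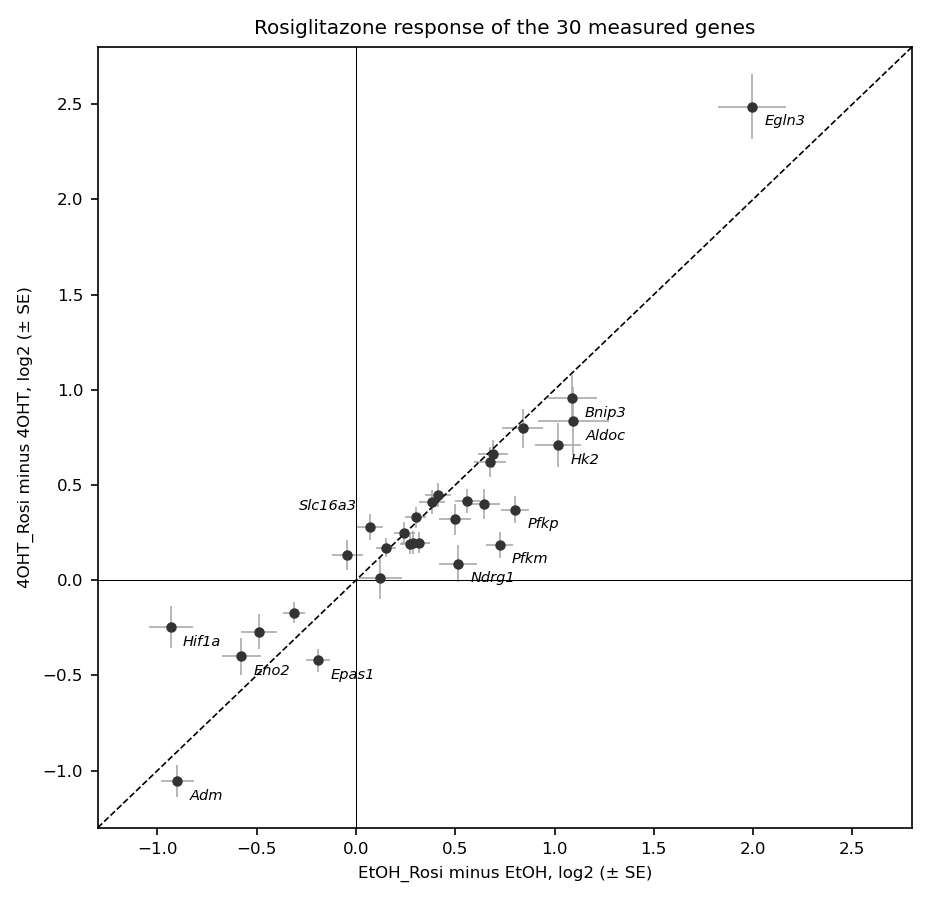
Rosiglitazone response of the 30 measured genes, with the log2 difference EtOH_Rosi minus EtOH on the x axis and 4OHT_Rosi minus 4OHT on the y axis. Points are the estimates of the fit, grey lines are ± 1 standard error, and the dashed line marks equal responses. Egln3 lies at 1.99 and 2.49, Adm at -0.90 and -1.05, and Hif1a and Pfkm lie off the line.

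Uptake and phosphorylation of glucose come first. Slc2a1 read 11.67, 11.63 and 11.58 on the EtOH arrays, 11.24, 11.20 and 11.19 on 4OHT, 11.95, 11.97 and 11.86 on EtOH_Rosi and 11.57, 11.55 and 11.50 on 4OHT_Rosi. Slc2a1, the widely expressed glucose transporter GLUT1, had groups that did not overlap in any of these comparisons, with the lowest values after 4-hydroxytamoxifen alone. It rose by 0.30 ± 0.05 (adjusted p = 0.000662) with rosiglitazone after ethanol and rose by 0.33 ± 0.05 (adjusted p = 0.000485) after 4-hydroxytamoxifen (log2 difference ± standard error, n = 3 arrays per group, limma with Benjamini-Hochberg adjustment over all genes, as for every such value here). The Hk2 values were 9.04, 8.80 and 8.56 in EtOH, 9.01, 8.92 and 8.98 in 4OHT, 9.66, 9.84 and 9.95 in EtOH_Rosi and 9.83, 9.72 and 9.49 in 4OHT_Rosi. Hk2, the hexokinase form of insulin-responsive tissues, was high on all 6 arrays with rosiglitazone. It rose by 1.02 ± 0.12 (adjusted p = 1.43e-05), which is 2.02-fold, and rose by 0.71 ± 0.12 (adjusted p = 0.000473) after 4-hydroxytamoxifen. For Hk1 the arrays gave 8.96, 8.86 and 8.92 in EtOH, 9.00, 8.96 and 8.88 in 4OHT, 9.21, 9.26 and 9.23 in EtOH_Rosi and 9.15, 9.10 and 9.18 in 4OHT_Rosi. Hk1, the hexokinase of most tissues, rose by 0.32 ± 0.06 (adjusted p = 0.000459) and rose by 0.20 ± 0.06 (adjusted p = 0.0189). The second of these Hk1 calls ended without array 4OHT 3, 4OHT_Rosi 1 or 4OHT_Rosi 3 (adjusted p between 0.0509 and 0.0848).

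All 3 phosphofructokinase subunits rose with rosiglitazone after ethanol. Where a pair of differences follows, the first is after ethanol and the second after 4-hydroxytamoxifen. Pfkl read 11.21, 11.06 and 10.98 on the EtOH arrays, 10.96, 10.82 and 10.67 on 4OHT, 11.68, 11.81 and 11.79 on EtOH_Rosi and 11.48, 11.42 and 11.41 on 4OHT_Rosi. Pfkl, the liver-type subunit, rose by 0.68 ± 0.08 (adjusted p = 1.83e-05) after ethanol and rose by 0.62 ± 0.08 (adjusted p = 6.53e-05) after 4-hydroxytamoxifen, with no overlap between groups. The Pfkp values were 10.74, 10.66 and 10.57 in EtOH, 10.53, 10.42 and 10.48 in 4OHT, 11.39, 11.48 and 11.50 in EtOH_Rosi and 10.96, 10.85 and 10.73 in 4OHT_Rosi. Pfkp, the platelet-type subunit, rose by 0.80 ± 0.07 (adjusted p = 1.53e-06) and rose by 0.37 ± 0.07 (adjusted p = 0.00145). For Pfkm the arrays gave 8.82, 8.84 and 8.78 in EtOH, 8.89, 8.83 and 8.93 in 4OHT, 9.47, 9.54 and 9.60 in EtOH_Rosi and 9.08, 9.19 and 8.94 in 4OHT_Rosi. Pfkm, the muscle-type subunit, was high only on the 3 EtOH_Rosi arrays: it rose by 0.72 ± 0.07 (adjusted p = 2.65e-06) after ethanol and gave 0.19 ± 0.07 (adjusted p = 0.064) after 4-hydroxytamoxifen. Pfkfb3 read 9.66, 9.42 and 9.28 on the EtOH arrays, 9.31, 9.11 and 9.11 on 4OHT, 10.24, 10.30 and 10.34 on EtOH_Rosi and 9.93, 10.16 and 9.83 on 4OHT_Rosi. Pfkfb3, an enzyme that makes the sugar phosphate activating phosphofructokinase, rose by 0.84 ± 0.10 (adjusted p = 2.45e-05) and rose by 0.80 ± 0.10 (adjusted p = 6.49e-05), and every array with rosiglitazone was above every array without. The Pfkfb4 values were 7.48, 7.24 and 7.41 in EtOH, 7.60, 7.43 and 7.40 in 4OHT, 7.37, 7.41 and 7.22 in EtOH_Rosi and 7.56, 7.67 and 7.60 in 4OHT_Rosi. Pfkfb4, of the same family, gave -0.04 ± 0.08 (adjusted p = 0.752) and 0.13 ± 0.08 (adjusted p = 0.278), with overlapping groups in both.

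Apart from Aldoc and Eno2, the later enzymes rose by 0.15 to 0.41 after ethanol on the probe sets used. For Aldoc the arrays gave 9.56, 9.05 and 8.94 in EtOH, 9.28, 8.75 and 8.65 in 4OHT, 10.12, 10.44 and 10.27 in EtOH_Rosi and 9.90, 9.79 and 9.50 in 4OHT_Rosi. Aldoc, an aldolase form known from brain, had EtOH 1 and 4OHT 1 well above the other arrays of their groups, and still rose by 1.09 ± 0.18 (adjusted p = 0.000299), or 2.13-fold, and rose by 0.84 ± 0.18 (adjusted p = 0.00342). Tpi1 read 12.64, 12.64 and 12.59 on the EtOH arrays, 12.62, 12.59 and 12.54 on 4OHT, 12.90, 12.87 and 12.92 on EtOH_Rosi and 12.78, 12.77 and 12.77 on 4OHT_Rosi. Tpi1, which interconverts the triose phosphates, rose by 0.27 ± 0.05 (adjusted p = 0.000727) and rose by 0.19 ± 0.05 (adjusted p = 0.013). The Gapdh values were 13.18, 13.14 and 13.14 in EtOH, 13.04, 13.05 and 12.97 in 4OHT, 13.31, 13.31 and 13.30 in EtOH_Rosi and 13.22, 13.19 and 13.16 in 4OHT_Rosi. Gapdh, the dehydrogenase of the pathway that is often used as a reference gene, rose by 0.15 ± 0.05 (adjusted p = 0.0324) and rose by 0.17 ± 0.05 (adjusted p = 0.0248). The groups did not overlap for either gene, although the Gapdh calls ended without any one of 5 arrays in the first comparison (EtOH 2, EtOH 3 or any EtOH_Rosi array) and of 4 in the second (4OHT 1, 4OHT 3, 4OHT_Rosi 1 and 4OHT_Rosi 2), with adjusted p between 0.054 and 0.0988. With only the compared groups in the fit both Gapdh calls ended (adjusted p = 0.0695 and 0.0703). The Tpi1 call in the second ended without 4OHT 3 (adjusted p = 0.0568).

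For Pgk1 the arrays gave 12.71, 12.65 and 12.53 in EtOH, 12.52, 12.44 and 12.36 in 4OHT, 13.01, 12.97 and 13.06 in EtOH_Rosi and 12.90, 12.82 and 12.83 in 4OHT_Rosi. Pgk1, the first enzyme of the pathway to yield ATP, rose by 0.38 ± 0.06 (adjusted p = 0.000349) and rose by 0.41 ± 0.06 (adjusted p = 0.000319). Pgam1 read 11.89, 11.74 and 11.70 on the EtOH arrays, 11.64, 11.66 and 11.55 on 4OHT, 12.19, 12.16 and 12.22 on EtOH_Rosi and 12.10, 12.10 and 11.99 on 4OHT_Rosi. Pgam1, the mutase that follows it, rose by 0.41 ± 0.06 (adjusted p = 0.000181) and rose by 0.45 ± 0.06 (adjusted p = 0.000151). For both genes every array with rosiglitazone was above every array without it. A second Pgam1 probe set, with a mean level of 10.4, rose by 1.63 and 1.40, so the size of the Pgam1 rise depends on the probe set. The Pkm values were 12.59, 12.58 and 12.55 in EtOH, 12.49, 12.43 and 12.43 in 4OHT, 12.78, 12.88 and 12.92 in EtOH_Rosi and 12.74, 12.60 and 12.60 in 4OHT_Rosi. Pkm, pyruvate kinase of most tissues, rose by 0.29 ± 0.06 (adjusted p = 0.0019) and rose by 0.20 ± 0.06 (adjusted p = 0.0282), and the second call ended without 4OHT 2, 4OHT 3 or 4OHT_Rosi 1 (adjusted p between 0.0843 and 0.12) or with only the compared groups in the fit (adjusted p = 0.0594). For Ldha the arrays gave 10.05, 10.04 and 10.00 in EtOH, 9.92, 9.87 and 9.79 in 4OHT, 10.25, 10.26 and 10.31 in EtOH_Rosi and 10.09, 10.10 and 10.14 in 4OHT_Rosi. Ldha, the lactate dehydrogenase subunit that favours lactate, rose by 0.24 ± 0.05 (adjusted p = 0.00289) and rose by 0.25 ± 0.05 (adjusted p = 0.00346), with no overlap between groups.

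Eno2 read 7.65, 7.70 and 7.63 on the EtOH arrays, 7.22, 7.35 and 7.33 on 4OHT, 7.22, 6.80 and 7.23 on EtOH_Rosi and 6.91, 6.83 and 6.96 on 4OHT_Rosi. Eno2, the neuron-type enolase, went the other way and fell by 0.58 ± 0.10 (adjusted p = 0.000371) after ethanol and fell by 0.40 ± 0.10 (adjusted p = 0.00792) after 4-hydroxytamoxifen, with the highest values on the EtOH arrays and EtOH_Rosi 2 apart from the other arrays of its group. The Slc16a3 values were 9.61, 9.53 and 9.44 in EtOH, 9.01, 8.99 and 8.96 in 4OHT, 9.63, 9.62 and 9.54 in EtOH_Rosi and 9.32, 9.14 and 9.34 in 4OHT_Rosi. Slc16a3, the lactate exporter MCT4, gave 0.07 ± 0.07 (adjusted p = 0.506) after ethanol with overlapping groups and rose by 0.28 ± 0.07 (adjusted p = 0.0072) after 4-hydroxytamoxifen. Its lowest values were those of 4OHT.

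**Figure D2:**
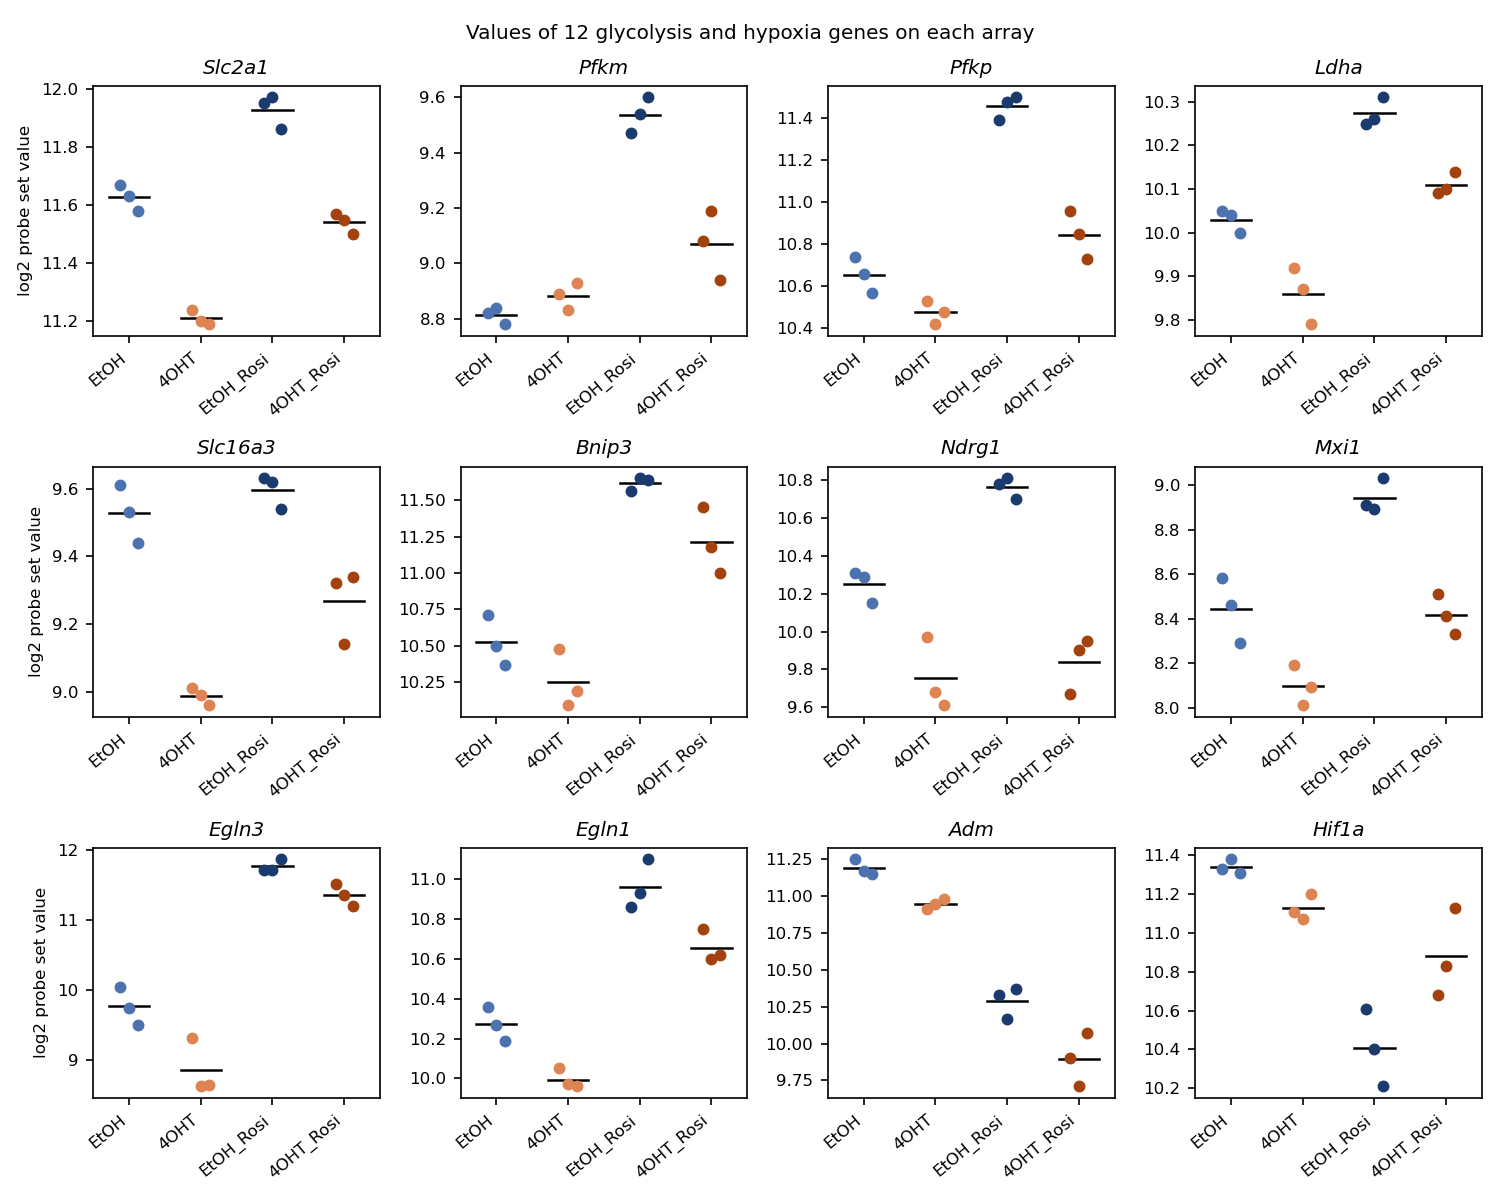
Log2 probe set values of 12 of the genes on each array, with a panel per gene and its own y axis; points are the 3 arrays of a group in the order of their numbers and horizontal lines are group means. The 3 EtOH_Rosi arrays are the highest for Slc2a1, Pfkm, Pfkp and Ndrg1, and the 3 EtOH arrays are the highest for Adm and Hif1a.

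Among the hypoxia targets the responses to rosiglitazone ran in both directions. For Bnip3 the arrays gave 10.71, 10.50 and 10.37 in EtOH, 10.48, 10.09 and 10.19 in 4OHT, 11.56, 11.65 and 11.64 in EtOH_Rosi and 11.45, 11.18 and 11.00 in 4OHT_Rosi. Bnip3, an outer mitochondrial membrane protein that takes part in mitophagy, rose by 1.09 ± 0.12 (adjusted p = 1.18e-05), which is 2.13-fold, and rose by 0.96 ± 0.12 (adjusted p = 6.02e-05). Vegfa read 11.36, 11.28 and 11.24 on the EtOH arrays, 11.28, 11.13 and 11.09 on 4OHT, 11.87, 11.85 and 11.84 on EtOH_Rosi and 11.60, 11.63 and 11.52 on 4OHT_Rosi. Vegfa, the growth factor for blood vessels, rose by 0.56 ± 0.06 (adjusted p = 1.2e-05) and rose by 0.42 ± 0.06 (adjusted p = 0.000238). Both genes separated all arrays with rosiglitazone from all arrays without it. The Kdm3a values were 9.20, 9.02 and 9.00 in EtOH, 8.97, 8.81 and 8.86 in 4OHT, 9.63, 9.73 and 9.80 in EtOH_Rosi and 9.42, 9.21 and 9.21 in 4OHT_Rosi. Kdm3a, a histone H3 lysine demethylase, rose by 0.65 ± 0.08 (adjusted p = 2.69e-05) and rose by 0.40 ± 0.08 (adjusted p = 0.00206). For Mxi1 the arrays gave 8.58, 8.46 and 8.29 in EtOH, 8.19, 8.01 and 8.09 in 4OHT, 8.91, 8.89 and 9.03 in EtOH_Rosi and 8.51, 8.41 and 8.33 in 4OHT_Rosi. Mxi1, a MAX partner that opposes MYC, rose by 0.50 ± 0.08 (adjusted p = 0.000279) and rose by 0.32 ± 0.08 (adjusted p = 0.0105), and the second call ended without 4OHT 2 or 4OHT_Rosi 1 (adjusted p = 0.0531 and 0.05).

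Ndrg1 read 10.31, 10.29 and 10.15 on the EtOH arrays, 9.97, 9.68 and 9.61 on 4OHT, 10.78, 10.81 and 10.70 on EtOH_Rosi and 9.67, 9.90 and 9.95 on 4OHT_Rosi. Ndrg1, a stress-responsive gene also linked to differentiation, rose by 0.51 ± 0.10 (adjusted p = 0.000886) after ethanol and gave 0.09 ± 0.10 (adjusted p = 0.603) after 4-hydroxytamoxifen, where the groups overlapped. The Adm values were 11.25, 11.17 and 11.15 in EtOH, 10.91, 10.95 and 10.98 in 4OHT, 10.33, 10.17 and 10.37 in EtOH_Rosi and 9.90, 9.71 and 10.07 in 4OHT_Rosi. Adm, the precursor of the vasodilator adrenomedullin, fell by 0.90 ± 0.08 (adjusted p = 2.61e-06) and fell by 1.05 ± 0.08 (adjusted p = 1.01e-06), or 1.87-fold and 2.08-fold lower, with no overlap between groups in any comparison. For P4ha1 the arrays gave 11.88, 11.97 and 11.86 in EtOH, 11.76, 11.77 and 11.82 in 4OHT, 11.62, 11.59 and 11.56 in EtOH_Rosi and 11.57, 11.59 and 11.68 in 4OHT_Rosi. P4ha1, a catalytic subunit of collagen prolyl hydroxylase, fell by 0.31 ± 0.06 (adjusted p = 0.000563) and fell by 0.17 ± 0.06 (adjusted p = 0.0403). P4ha2 read 10.07, 10.04 and 9.84 on the EtOH arrays, 9.56, 9.61 and 9.59 on 4OHT, 9.53, 9.47 and 9.49 on EtOH_Rosi and 9.19, 9.21 and 9.55 on 4OHT_Rosi. P4ha2, the other subunit of this kind, fell by 0.49 ± 0.09 (adjusted p = 0.000796) and fell by 0.27 ± 0.09 (adjusted p = 0.0446). All 9 arrays other than the EtOH arrays were below the EtOH arrays for both collagen genes. Their second calls ended without any one of several arrays, 6 for P4ha1 (the 3 4OHT arrays, EtOH_Rosi 2, 4OHT_Rosi 1 and 4OHT_Rosi 2) and 9 for P4ha2 (those 6, EtOH 2, EtOH_Rosi 1 and EtOH_Rosi 3), with adjusted p from 0.0525 to 0.176. They also ended with only the compared groups in the fit (adjusted p = 0.0798 for P4ha1 and 0.0799 for P4ha2) and after median centring (0.0996 and 0.078). Car9, a membrane carbonic anhydrase that is among the best known hypoxia markers, ranged from 5.66 to 6.25 over the 12 arrays, with overlap in every comparison and no call. This holds for the probe set used. In a fit over every probe set, a second one with a mean level of 5.84 rose by 0.79 (adjusted p = 0.000157) after ethanol. After 4-hydroxytamoxifen it gave 0.17 (adjusted p = 0.378).

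The oxygen-sensing genes gave the largest single response. The Egln3 values were 10.05, 9.75 and 9.50 in EtOH, 9.32, 8.63 and 8.65 in 4OHT, 11.71, 11.71 and 11.86 in EtOH_Rosi and 11.51, 11.35 and 11.20 in 4OHT_Rosi. Egln3, the hydroxylase PHD3 and itself a target of the factors, rose by 1.99 ± 0.17 (adjusted p = 1.23e-06) after ethanol, or 3.98-fold, and rose by 2.49 ± 0.17 (adjusted p = 2.63e-07) after 4-hydroxytamoxifen, or 5.6-fold. The lowest array with rosiglitazone (11.20) was above the highest without it (10.05). For Egln1 the arrays gave 10.36, 10.27 and 10.19 in EtOH, 10.05, 9.97 and 9.96 in 4OHT, 10.86, 10.93 and 11.10 in EtOH_Rosi and 10.75, 10.60 and 10.62 in 4OHT_Rosi. Egln1, the main oxygen-sensing hydroxylase PHD2, rose by 0.69 ± 0.07 (adjusted p = 7.91e-06) and rose by 0.66 ± 0.07 (adjusted p = 1.86e-05), again with no overlap.

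Hif1a read 11.33, 11.38 and 11.31 on the EtOH arrays, 11.11, 11.07 and 11.20 on 4OHT, 10.61, 10.40 and 10.21 on EtOH_Rosi and 10.68, 10.83 and 11.13 on 4OHT_Rosi. Hif1a, the regulated subunit of the factor, fell by 0.93 ± 0.11 (adjusted p = 1.89e-05) after ethanol and gave -0.25 ± 0.11 (adjusted p = 0.137) after 4-hydroxytamoxifen, where array 4OHT_Rosi 3 was the highest of its group and overlapped the 4OHT arrays. A second, dimmer Hif1a probe set, with a mean level of 6.40, moved the opposite way, by 1.25 (adjusted p = 1.68e-06) after ethanol and by 0.76 (adjusted p = 0.000187) after 4-hydroxytamoxifen, and with the mean of both probe sets the first difference was 0.16 (adjusted p = 0.298), so the direction of Hif1a depends on the probe set. The Epas1 values were 10.29, 10.46 and 10.41 in EtOH, 10.50, 10.49 and 10.36 in 4OHT, 10.21, 10.20 and 10.18 in EtOH_Rosi and 10.02, 10.05 and 10.02 in 4OHT_Rosi. Epas1, the HIF-2 alpha subunit, fell by 0.19 ± 0.06 (adjusted p = 0.0276) and fell by 0.42 ± 0.06 (adjusted p = 0.000159). The first Epas1 call ended without EtOH 2, EtOH 3 or any one EtOH_Rosi array (adjusted p between 0.052 and 0.126), after median centring of the arrays (adjusted p = 0.0733), and with only the compared groups in the fit (adjusted p = 0.0572).

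**Figure D3:**
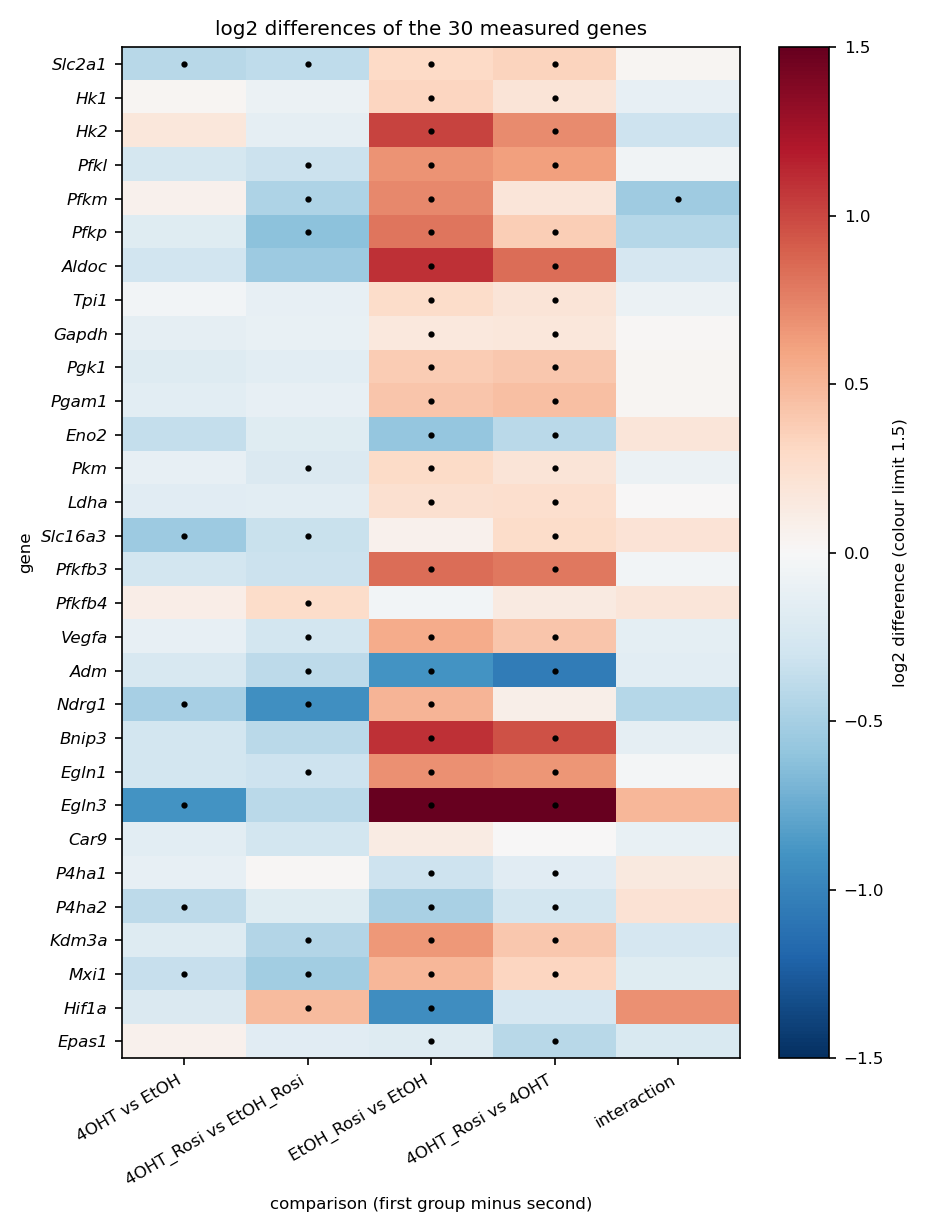
Log2 differences of the 30 measured genes (rows, by role) in the 5 comparisons (columns, first group minus second). Red is higher and blue lower, colours stop at 1.5 in either direction, and dots mark an adjusted p under 0.05 over all genes. The columns for rosiglitazone are red for most of glycolysis and blue for Eno2, Adm, P4ha1, P4ha2, Hif1a and Epas1, and the column for 4OHT against EtOH has 6 dots, all on blue.

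A smaller set of genes fell with 4-hydroxytamoxifen, and pairs of differences are given here first without and then with rosiglitazone. Without rosiglitazone, 6 of the 30 genes fell and 0 rose (4OHT against EtOH), where 1.79% of all genes fell and 2.13% rose, and 2.78% and 3.79% of genes at or above the median level. With rosiglitazone, 12 fell and 2 rose (4OHT_Rosi against EtOH_Rosi), where 3.38% of all genes fell and 4.65% rose, and 5.64% and 8.42% of the brighter genes. The median difference of the 30 genes was -0.19 and -0.27, against 0 and -0.0067 over all genes, and 25 and 27 of the 30 were below 0. The comparisons share no array. Slc2a1, Slc16a3, Ndrg1 and Mxi1 fell in both, which is 66.7% of the 6 and 33.3% of the 12, and 23 of 30 genes (76.7%) were below 0 in both, against 28.9% of all genes. The share of all genes that fell in both at the threshold was not counted. Without array 4OHT 2 the number that fell in the first comparison was 2, and without 4OHT 3 it was 3, while leaving out any other array gave 4 to 8. In the second comparison 9 to 13 genes fell without any one array, with 9 when 4OHT_Rosi 3 was left out, and 9 fell with only the compared groups in the fit, where 5 of the 12 calls ended (Slc16a3, Pkm, Vegfa, Adm and Egln1). The 2 rises became 0 without EtOH_Rosi 2, EtOH_Rosi 3 or 4OHT_Rosi 3 and 1 without EtOH 3, 4OHT 2, 4OHT 3, EtOH_Rosi 1, 4OHT_Rosi 1 or 4OHT_Rosi 2. None of these differences reached 2-fold.

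Proliferation markers moved beside the first comparison: 8 of 11 fell, with a median difference of -0.42, and their mean level was 8.86 to 8.91 on the EtOH arrays and 8.34 to 8.50 on 4OHT. Without 4OHT 1, 5 of the 11 fell. Of genes at or above the median level, 2.78% fell in this comparison. In the second comparison 1 of the 11 fell, and their mean level was 7.94 to 8.03 on EtOH_Rosi and 7.87 to 8.11 on 4OHT_Rosi. Markers of other cells also leaned below 0 in the first comparison, with few calls. The median difference was -0.21 for 13 progenitor and fibroblast markers (1 rose, 1 fell). It was -0.18 for 12 macrophage and leukocyte markers (1 rose, 2 fell) and -0.15 for 10 endothelial markers (0 rose, 0 fell). In the second comparison these medians were 0.05, -0.005 and -0.05. Adipocyte markers had a median difference of 0.07 in the first comparison and a mean level of 12.22 to 12.28 on 4OHT. The part of these levels in the results was not tested.

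**Figure D4:**
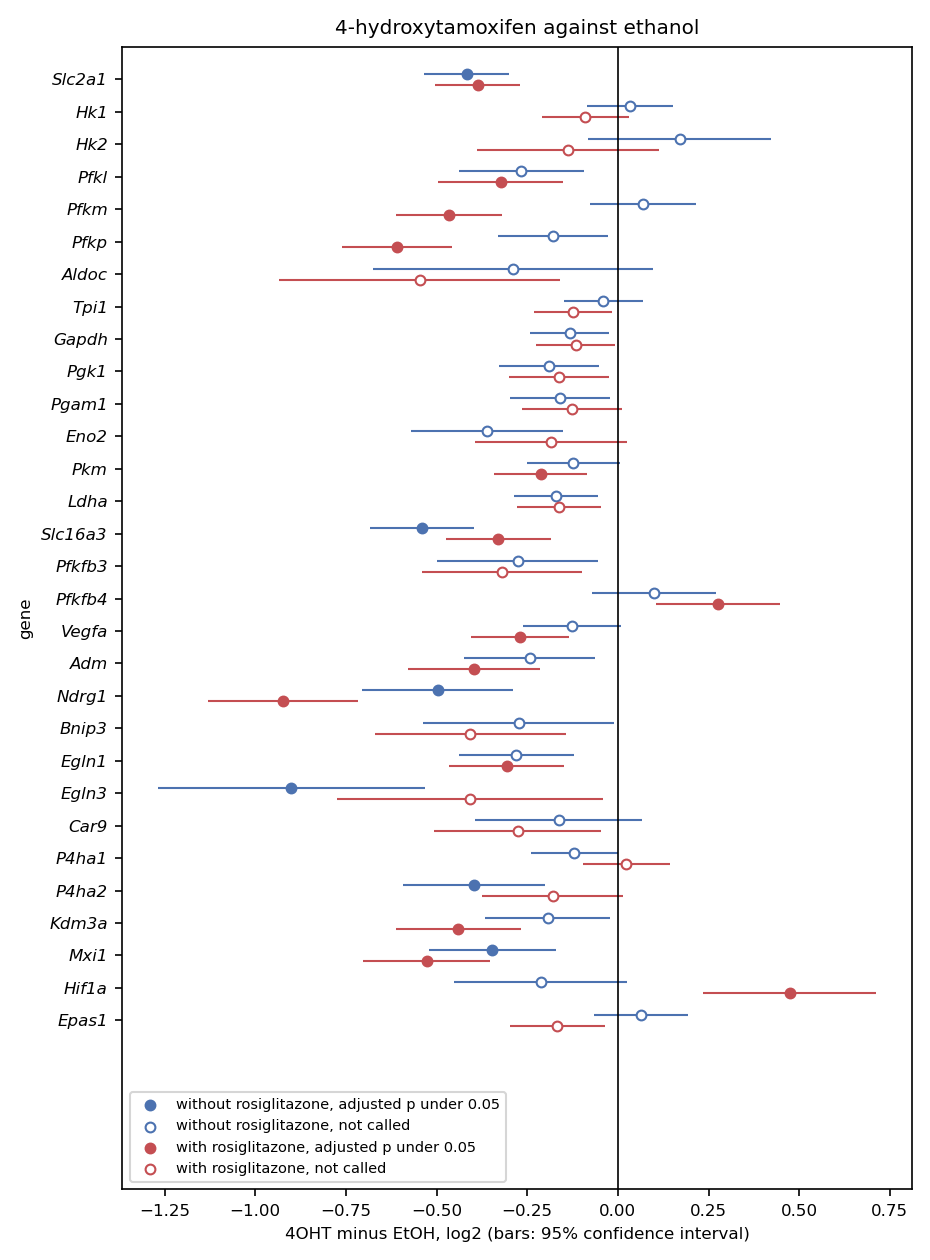
Log2 difference between cells given 4-hydroxytamoxifen and cells given ethanol for the 30 measured genes, without rosiglitazone (blue) and with it (red). Bars are 95% confidence intervals of the fit and filled points have an adjusted p under 0.05. All filled points lie left of 0 except those of Pfkfb4 and Hif1a with rosiglitazone.

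At the ends of glycolysis, both transporters fell. Slc2a1 fell by 0.42 ± 0.05 (adjusted p = 0.000617) without rosiglitazone and fell by 0.39 ± 0.05 (adjusted p = 0.000696) with it, 1.33-fold and 1.31-fold lower. Slc16a3 fell by 0.54 ± 0.07 (adjusted p = 0.000449) and fell by 0.33 ± 0.07 (adjusted p = 0.00802). For both genes all 3 arrays after 4-hydroxytamoxifen were below all 3 after ethanol in either state, and these 4 calls held without any one array. With only the compared groups in the fit the Slc16a3 call with rosiglitazone ended (adjusted p = 0.0522). The Slc2a1 calls hold for the probe set used. In a fit over every probe set, a second, dimmer one with a mean level of 5.77 gave -0.04 (adjusted p = 0.847) and -0.09 (adjusted p = 0.502).

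The phosphofructokinase subunits fell with rosiglitazone. Pfkp fell by 0.61 ± 0.07 (adjusted p = 0.000139), Pfkm fell by 0.47 ± 0.07 (adjusted p = 0.000868) and Pfkl fell by 0.32 ± 0.08 (adjusted p = 0.0245), and in each case the 3 4OHT_Rosi arrays lay below the 3 EtOH_Rosi arrays. Without rosiglitazone Pfkp gave -0.18 ± 0.07 (adjusted p = 0.211), Pfkm 0.07 ± 0.07 (adjusted p = 0.713) and Pfkl -0.27 ± 0.08 (adjusted p = 0.0917). The Pfkl call ended without EtOH_Rosi 2, EtOH_Rosi 3, 4OHT_Rosi 2 or 4OHT_Rosi 3 (adjusted p between 0.0678 and 0.0909). Pkm fell by 0.21 ± 0.06 (adjusted p = 0.0441) with rosiglitazone, a call that ended without any one of 10 arrays (all but EtOH_Rosi 1 and 4OHT_Rosi 1, adjusted p between 0.0556 and 0.143) and with only the compared groups in the fit (adjusted p = 0.17). Pfkfb4 rose by 0.28 ± 0.08 (adjusted p = 0.0492) and was the only gene of glycolysis to rise, but without any one of 9 arrays (EtOH 3, 4OHT 2, 4OHT 3 and all 6 with rosiglitazone) its adjusted p was between 0.0583 and 0.168. With only the compared groups in the fit, array weights, quantile normalization, median centring or every probe set tested, its adjusted p was between 0.0509 and 0.0974.

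The remaining enzymes did not pass the test in either state. Ldha gave -0.17 ± 0.05 (adjusted p = 0.11) and -0.16 ± 0.05 (adjusted p = 0.0865), Pgk1 gave -0.19 ± 0.06 (adjusted p = 0.138) and -0.16 ± 0.06 (adjusted p = 0.157), and Pgam1 gave -0.16 ± 0.06 (adjusted p = 0.223) and -0.13 ± 0.06 (adjusted p = 0.289). For these 3 genes the arrays of the compared groups did not overlap in either state. Gapdh gave -0.13 ± 0.05 (adjusted p = 0.194) and -0.12 ± 0.05 (adjusted p = 0.201), also with no overlap. The share of all genes without overlap was not counted, here or elsewhere in the text. The lack of overlap therefore adds nothing to these tests. Hk1, Hk2 and Tpi1 overlapped between 4OHT and EtOH, with differences of 0.03 ± 0.06 (adjusted p = 0.854), 0.17 ± 0.12 (adjusted p = 0.552) and -0.04 ± 0.05 (adjusted p = 0.796). With rosiglitazone their intervals were -0.21 to 0.03, -0.39 to 0.11 and -0.23 to -0.02 (95% confidence). Aldoc gave -0.29 ± 0.18 (adjusted p = 0.491) and -0.55 ± 0.18 (adjusted p = 0.0859), Pfkfb3 gave -0.28 ± 0.10 (adjusted p = 0.185) and -0.32 ± 0.10 (adjusted p = 0.0782), and Eno2 gave -0.36 ± 0.10 (adjusted p = 0.0591) and -0.18 ± 0.10 (adjusted p = 0.317).

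Of the 9 measured hypoxia targets, 3 fell without rosiglitazone (33.3%) and 5 with it (55.6%), and 0 rose in either. Of genes at or above the median level, 2.78% fell without rosiglitazone and 5.64% with it, and of all genes 1.79% and 3.38%. Ndrg1 fell by 0.50 ± 0.10 (adjusted p = 0.0102) without it and fell by 0.92 ± 0.10 (adjusted p = 6.88e-05) with it, or 1.9-fold, which was the largest fall among the 30 genes in that comparison. Its first call ended without 4OHT 2 (adjusted p = 0.0554) or 4OHT 3 (adjusted p = 0.0562). Mxi1 fell by 0.35 ± 0.08 (adjusted p = 0.0301) and fell by 0.53 ± 0.08 (adjusted p = 0.0014). Without EtOH 1, EtOH 2, 4OHT 2 or 4OHT 3 the first Mxi1 call ended (adjusted p between 0.102 and 0.129), and with the mean of its probe sets the difference was -0.07 (adjusted p = 0.787). P4ha2 fell by 0.40 ± 0.09 (adjusted p = 0.0255) without rosiglitazone, with EtOH arrays at 9.84 to 10.07 and 4OHT arrays at 9.56 to 9.61, and gave -0.18 ± 0.09 (adjusted p = 0.286) with it. That call ended without any one of the 5 arrays EtOH 1, EtOH 2, 4OHT 1, 4OHT 2 and 4OHT 3 (adjusted p between 0.074 and 0.108), and the number of hypoxia targets that fell was then 1, 1, 2, 0 and 0.

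With rosiglitazone Adm fell by 0.40 ± 0.08 (adjusted p = 0.0104), Kdm3a fell by 0.44 ± 0.08 (adjusted p = 0.00396) and Vegfa fell by 0.27 ± 0.06 (adjusted p = 0.0177), each with no overlap between the groups. With only the compared groups in the fit the calls of Adm (adjusted p = 0.0737) and Vegfa (adjusted p = 0.0561) ended. Without it the differences were -0.24 ± 0.08 (adjusted p = 0.149) for Adm, -0.19 ± 0.08 (adjusted p = 0.241) for Kdm3a and -0.13 ± 0.06 (adjusted p = 0.352) for Vegfa, and the groups overlapped for Vegfa. The Vegfa call ended without EtOH_Rosi 2 (adjusted p = 0.0528) or 4OHT_Rosi 3 (adjusted p = 0.0655). Bnip3 gave -0.27 ± 0.12 (adjusted p = 0.288) and -0.41 ± 0.12 (adjusted p = 0.06), P4ha1 gave -0.12 ± 0.06 (adjusted p = 0.311) and 0.02 ± 0.06 (adjusted p = 0.868), and Car9 gave -0.16 ± 0.11 (adjusted p = 0.528) and -0.28 ± 0.11 (adjusted p = 0.15). In a fit over every probe set, the second Car9 probe set gave -0.25 (adjusted p = 0.338) and fell by 0.87 (adjusted p = 0.000616).

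Among the sensing genes, Egln3 fell by 0.90 ± 0.17 (adjusted p = 0.00872) without rosiglitazone, 1.87-fold lower, with array 4OHT 1 (9.32) close to the lowest EtOH array (9.50). Without 4OHT 2 its adjusted p was 0.0504. With rosiglitazone Egln3 gave -0.41 ± 0.17 (adjusted p = 0.186). Egln1 gave -0.28 ± 0.07 (adjusted p = 0.0529) and, with rosiglitazone, fell by 0.31 ± 0.07 (adjusted p = 0.0211), and that call ended without EtOH_Rosi 3, 4OHT_Rosi 2 or 4OHT_Rosi 3 (adjusted p between 0.067 and 0.0842) and with only the compared groups in the fit (adjusted p = 0.0882). Hif1a gave -0.21 ± 0.11 (adjusted p = 0.381) without rosiglitazone and rose by 0.47 ± 0.11 (adjusted p = 0.0181) with it, where the 4OHT_Rosi arrays (10.68 to 11.13) lay just above the EtOH_Rosi arrays (10.21 to 10.61). That call ended without EtOH_Rosi 2, EtOH_Rosi 3 or 4OHT_Rosi 3 (adjusted p between 0.0563 and 0.0744) or with only the compared groups in the fit (adjusted p = 0.102), the dimmer Hif1a probe set fell by 0.49 (adjusted p = 0.0151), and the mean of both gave -0.0083 (adjusted p = 0.978). Epas1 gave 0.06 ± 0.06 (adjusted p = 0.707) and -0.17 ± 0.06 (adjusted p = 0.122).

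The effect of 4-hydroxytamoxifen differed between the rosiglitazone states for 1 of the 30 genes, where 0.482% of all genes had a negative and 0.523% a positive difference at an adjusted p under 0.05, and 0.857% and 0.839% of genes at or above the median level. Pfkm gave -0.54 ± 0.10 (adjusted p = 0.0229) for the effect with rosiglitazone minus the effect without, and its EtOH_Rosi arrays stood at 9.47 to 9.60 and all other arrays at 8.78 to 9.19. Without any one of 7 arrays (the 3 EtOH arrays, 4OHT 1, 4OHT 3, EtOH_Rosi 2 and EtOH_Rosi 3) this call ended, with adjusted p between 0.0519 and 0.0755, and without 4OHT_Rosi 1 there were 2 such genes. The next differences in size among the phosphofructokinase and target genes were -0.43 ± 0.10 (adjusted p = 0.0629) for Pfkp and -0.43 ± 0.14 (adjusted p = 0.168) for Ndrg1. Hif1a gave 0.69 ± 0.16 (adjusted p = 0.0603) and Egln3 0.49 ± 0.24 (adjusted p = 0.386), and without EtOH_Rosi 1 or 4OHT_Rosi 1 there was 1 gene with a positive difference that passed. For Slc2a1 the difference was 0.03 ± 0.08 (adjusted p = 0.916), with a 95% confidence interval of -0.14 to 0.20. The other genes did not pass the test, which does not show that their effects were alike in both states.

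**Figure D5:**
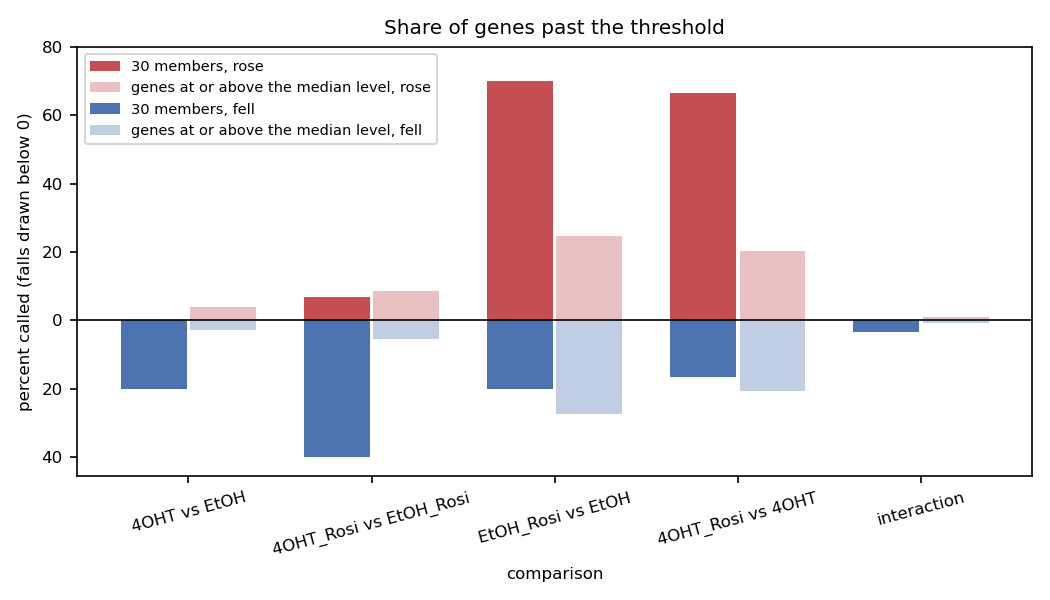
Percent of the 30 measured genes (dark bars) and of all genes at or above the median level (pale bars) that rose (red, above 0) or fell (blue, below 0) at an adjusted p under 0.05 in each comparison. The dark red bars in the rosiglitazone comparisons and the dark blue bars in the 4-hydroxytamoxifen comparisons exceed the pale bars, and the dark blue bars in the rosiglitazone comparisons do not.

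Other genes of the same pathways were read from lists drawn up by function, with earlier results of these data known. The lists are therefore not an independent check of the 34 genes. Of 36 measured hypoxia-inducible factor targets outside the 34 genes, 8 fell and 1 rose between 4OHT and EtOH, and 17 fell and 2 rose between 4OHT_Rosi and EtOH_Rosi, with median differences of -0.15 and -0.30. In the first, 22.2% fell and 2.78% rose, against 2.78% and 3.79% of genes at or above the median level. In the second, 47.2% fell and 5.56% rose, against 5.64% and 8.42%. The first count of falls was 3 without EtOH 1, 4OHT 2 or 4OHT 3 and 4 without EtOH 2, and the second was 13 to 18 without any one array. Plod2, a lysyl hydroxylase of collagen, fell by 0.71 ± 0.09 (adjusted p = 0.000415) and fell by 0.74 ± 0.09 (adjusted p = 0.000169). Ddit4, an inhibitor of mTOR signalling, fell by 0.76 ± 0.12 (adjusted p = 0.00141) with rosiglitazone. Fam162a, a mitochondrial protein, fell by 0.41 ± 0.08 (adjusted p = 0.00769) and Anln, the cytokinesis protein anillin, fell by 0.51 ± 0.10 (adjusted p = 0.0101) without it. Cited2, which competes with the factors for their coactivators, rose by 0.26 ± 0.07 (adjusted p = 0.048) and rose by 0.47 ± 0.07 (adjusted p = 0.000726). Vegfc, a growth factor for lymphatic vessels, rose by 0.34 ± 0.09 (adjusted p = 0.0382) with rosiglitazone.

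With rosiglitazone itself, 22 of these 36 targets rose and 8 fell after ethanol, and 14 rose and 8 fell after 4-hydroxytamoxifen. These are 61.1% and 22.2%, then 38.9% and 22.2%, against 24.6% and 27.4%, then 20.4% and 20.7%, of genes at or above the median level. Angptl4, an inhibitor of lipoprotein lipase, rose by 1.42 ± 0.07 (adjusted p = 2.29e-08) and rose by 1.34 ± 0.07 (adjusted p = 4.55e-08). Vldlr, a receptor for lipoproteins, rose by 1.04 ± 0.08 (adjusted p = 6.06e-07) after ethanol and Hilpda, a lipid droplet protein, rose by 0.81 ± 0.08 (adjusted p = 1.05e-05) after 4-hydroxytamoxifen. Edn1, the precursor of the vasoconstrictor endothelin, fell by 1.00 ± 0.08 (adjusted p = 6.64e-07) and fell by 1.22 ± 0.08 (adjusted p = 1.61e-07). Cited2 fell by 0.77 ± 0.07 (adjusted p = 1.27e-06) after ethanol.

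Of 25 measured further genes of glycolysis, gluconeogenesis and pyruvate handling, 0 passed the test between 4OHT and EtOH, and 6 fell and 0 rose between 4OHT_Rosi and EtOH_Rosi. The 6 are 24%, where 5.64% of genes at or above the median level fell and 8.42% rose. Pgm2, a phosphoglucomutase, fell by 0.43 ± 0.05 (adjusted p = 0.000193), Slc2a3, the glucose transporter GLUT3, fell by 0.66 ± 0.09 (adjusted p = 0.000511), and Ldhb, the other lactate dehydrogenase subunit, fell by 0.57 ± 0.10 (adjusted p = 0.00277). For Slc2a3 and Pgm2 the effects also differed between the rosiglitazone states, by -0.60 ± 0.12 (adjusted p = 0.0415) and -0.33 ± 0.07 (adjusted p = 0.0487). Leaving out any one array other than EtOH_Rosi 1 lowered this count from 2, to 1 for 4OHT_Rosi 1 or 4OHT_Rosi 2 and to 0 for the rest. With rosiglitazone 9 of the 25 rose (36%) and 3 fell (12%) after ethanol, against 24.6% and 27.4% of genes at or above the median level. After 4-hydroxytamoxifen 5 rose (20%) and 2 fell (8%), against 20.4% and 20.7%, so the share that rose was that of the background. Mpc1, a subunit of the mitochondrial pyruvate carrier, rose by 0.62 ± 0.06 (adjusted p = 1.76e-06) and rose by 0.58 ± 0.06 (adjusted p = 4.89e-06). Slc2a4, the insulin-responsive transporter GLUT4, rose by 0.93 ± 0.12 (adjusted p = 5.55e-05) and Ldhb rose by 0.90 ± 0.10 (adjusted p = 9.37e-06) after ethanol, and Slc16a1, the transporter MCT1, rose by 0.47 ± 0.07 (adjusted p = 0.000128) after 4-hydroxytamoxifen. Slc16a7, a further monocarboxylate transporter, fell by 0.37 ± 0.07 (adjusted p = 0.00122) and Adpgk, a glucokinase that uses ADP, fell by 0.31 ± 0.07 (adjusted p = 0.00208) after ethanol. Slc2a3 fell by 0.44 ± 0.09 (adjusted p = 0.00204) and Pck2, the mitochondrial phosphoenolpyruvate carboxykinase, fell by 0.32 ± 0.08 (adjusted p = 0.011) after 4-hydroxytamoxifen, where 1 rather than 2 genes fell without 4OHT_Rosi 1.

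The pentose phosphate pathway branches off glycolysis to make NADPH and ribose. Of its 7 measured genes 0 passed between 4OHT and EtOH, and 2 rose and 0 fell between 4OHT_Rosi and EtOH_Rosi. The 2 are 28.6%, where 8.42% of genes at or above the median level rose and 5.64% fell. Rpia, the ribose phosphate isomerase, rose by 0.48 ± 0.08 (adjusted p = 0.00176), and Prps1, which activates ribose phosphate for nucleotide synthesis, rose by 0.45 ± 0.12 (adjusted p = 0.0343). Without 4OHT 2, EtOH_Rosi 3 or any one 4OHT_Rosi array, 1 of the 7 rose. With rosiglitazone 3 rose (42.9%) and 1 fell (14.3%) after ethanol, against 24.6% and 27.4% of genes at or above the median level. After 4-hydroxytamoxifen 4 rose (57.1%) and 0 fell, against 20.4% and 20.7%. Taldo1, transaldolase, rose by 0.67 ± 0.08 (adjusted p = 1.74e-05) and rose by 0.58 ± 0.08 (adjusted p = 0.000103), Pgls, the lactonase, rose by 0.42 ± 0.07 (adjusted p = 0.000432) and rose by 0.42 ± 0.07 (adjusted p = 0.000671), and Rpia rose by 0.41 ± 0.08 (adjusted p = 0.000967) and rose by 0.64 ± 0.08 (adjusted p = 3.87e-05). Prps1 fell by 0.51 ± 0.12 (adjusted p = 0.00412) after ethanol.

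Of 23 measured regulators of the factors and partners of MYC and MAX, 0 passed between 4OHT and EtOH. Between 4OHT_Rosi and EtOH_Rosi 2 rose (8.70%) and 1 fell (4.35%), near the 8.42% and 5.64% of genes at or above the median level. Mlx, a partner of the glucose-sensing MondoA proteins, rose by 0.42 ± 0.07 (adjusted p = 0.00264), Eloc, elongin C of the VHL complex, rose by 0.28 ± 0.07 (adjusted p = 0.0172) and Mtor, the growth kinase, fell by 0.25 ± 0.06 (adjusted p = 0.0289). The rises became 1 without EtOH_Rosi 1, 4OHT_Rosi 1 or 4OHT_Rosi 3, and the falls became 0 without EtOH_Rosi 2, EtOH_Rosi 3 or any one 4OHT_Rosi array and 2 without EtOH 1 or 4OHT 2. With rosiglitazone 8 rose (34.8%) and 6 fell (26.1%) after ethanol, against 24.6% and 27.4% of the brighter genes. After 4-hydroxytamoxifen 5 rose (21.7%) and 4 fell (17.4%), against 20.4% and 20.7%. Apart from the 34.8%, these shares are close to the background. Without EtOH 3 the 8 became 5, and the 4 became 0 without 4OHT 3 or 4OHT_Rosi 2, 1 without 4OHT 1, and 2 without 4OHT 2 or 4OHT_Rosi 1. Mtor rose by 0.92 ± 0.06 (adjusted p = 2.36e-07) and rose by 0.52 ± 0.06 (adjusted p = 4.59e-05), Cul2, the cullin of the VHL complex, rose by 0.53 ± 0.06 (adjusted p = 1.28e-05) and rose by 0.42 ± 0.06 (adjusted p = 0.00015), and Mlxip, which codes for MondoA, rose by 0.47 ± 0.06 (adjusted p = 5e-05) and rose by 0.48 ± 0.06 (adjusted p = 6.91e-05). Arnt2, an ARNT paralogue, fell by 0.68 ± 0.09 (adjusted p = 7.18e-05) and fell by 0.34 ± 0.09 (adjusted p = 0.0178). Eloc fell by 0.33 ± 0.07 (adjusted p = 0.00137) after ethanol.

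Within groups the 30 genes tended to move together. Array EtOH 1 was the highest of its group for 23 of the 30 genes, against 36.8% of all genes, and EtOH 3 was the lowest for 25, against 37.0% of all genes. Array 4OHT 1 was the highest of its group for 21 of them, against 29.9% of all genes. With rosiglitazone no array was highest for more than 15 genes. For example, Egln3 ran from 10.05 on EtOH 1 to 9.50 on EtOH 3 and stood at 9.32 on 4OHT 1 against 8.63 and 8.65 on the other 4OHT arrays, and Aldoc stood at 9.56 on EtOH 1 and 8.94 on EtOH 3. The numbers of the arrays carry no order, and the cause of these shared deviations was not tested.

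Of the 30 genes, 7 had more than 1 probe set of their own. The second Slc2a1 probe set, with a mean level of 5.77, passed in no comparison. With rosiglitazone it gave 0.18 (adjusted p = 0.0622) after ethanol and 0.13 (adjusted p = 0.209) after 4-hydroxytamoxifen. For Pgam1 a second probe set with a mean level of 10.4 rose by 1.63 after ethanol and 1.40 after 4-hydroxytamoxifen, in the same direction as the brighter one and by more. For Car9 a second probe set, with a mean level of 5.84, fell by 0.87 with 4-hydroxytamoxifen in the presence of rosiglitazone (adjusted p = 0.000616) and rose by 0.79 with rosiglitazone after ethanol (adjusted p = 0.000157), although the brighter one passed in no comparison. For Mxi1 a second probe set gave 0.21 between 4OHT and EtOH, opposite in sign to the brighter one, and did not pass. A second Ndrg1 probe set (mean level 5.28) gave -0.16 (adjusted p = 0.218) between 4OHT and EtOH. It fell by 0.25 (adjusted p = 0.0273) between 4OHT_Rosi and EtOH_Rosi. The further Gapdh probe sets did not pass between 4OHT_Rosi and 4OHT, with 0.16 (adjusted p = 0.0704) and 0.23 (adjusted p = 0.131). These probe sets were not used for the counts above.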

How the data were processed

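Total RNA from the 12 samples was hybridised to Affymetrix arrays. The values are log2 probe set values with 2 decimals, which the authors deposited as a table of 41345 probe sets. The submitters' processing notes name Affymetrix Expression Console; for its version, the summary method, the normalization and the genome build, nothing is given in the sources used here. Arrays give no counts, so their number limits the precision, and no detection call was used. Of the probe sets, 190 were controls, 15820 had no gene symbol, 1814 had several and 23521 had 1, of which 23328 were matched to RefSeq by Entrez identifier. The brightest probe set by its mean over the 12 arrays stood for each of 22180 genes, and 1082 genes had more than 1. Groups were taken from the sample titles.

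Differences were tested with limma 3.58.1 in R 4.3.3 (lmFit and eBayes, 1 mean per group over all 12 arrays, 8 residual and 5.07 prior degrees of freedom), with Benjamini-Hochberg adjusted p under 0.05 over all genes in each comparison. The fit was tested on simulated data whose errors were independent between genes and arrays, so it does not cover deviations that genes share within a group. Genes were named by a rule: all 34 listed genes, and up to 3 called genes of smallest p, plus up to 2 of opposite direction, from each further list in each comparison. The genes and lists were chosen with earlier results of these data known. Alternatives covered the replicate number as a block, the groups in the fit, variance trend, array weights, scaling, level filters, probe set choice, a 2-fold minimum and each array left out; leaving out each array for counts over the further and marker lists was chosen after seeing the data. Same-numbered arrays of different groups had deviations that correlated at -0.24 to 0.079, so the numbers were not taken as pairs. Promoter sequences are from RefSeq, build GRCm38.p6, with 32 of 34 genes matched. Python 3.11.15 with matplotlib 3.10.9 drew the figures.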

Additional observations from a re-analysis of the deposited data

Results flagged for a closer look

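The effect of 4-hydroxytamoxifen on Pfkm, the muscle-type phosphofructokinase subunit, differed between cells with and without rosiglitazone by -0.54 on the log2 scale (limma, adjusted p = 0.0229). This was the test of the difference itself, over all 12 arrays. Pfkm gave 0.07 without rosiglitazone and -0.47 with it. The call for the difference ended without any one of 7 arrays (adjusted p between 0.0519 and 0.0755) and with the replicate block (adjusted p = 0.0535).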

How the results depend on the processing

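The directions of the called differences held under every alternative run except for Hif1a, which with the mean of its probe sets gave -0.0083 between 4OHT_Rosi and EtOH_Rosi and 0.16 between EtOH_Rosi and EtOH. Between 4OHT and EtOH, the 6 genes that fell became 12 with an intensity trend or estimated array weights, 10 among genes at or above the median level and 0 with a 2-fold minimum, and 2 to 8 without single arrays. Between 4OHT_Rosi and EtOH_Rosi, the 2 that rose became 1 with the replicate block, array weights, quantile normalization, median centring, the mean of probe sets or every probe set tested, and 0 with only those groups fitted or a 2-fold minimum, and 0 to 2 without single arrays. There the 12 that fell became 0 at 2-fold, 9 with only those groups fitted, which ended 5 of the 12 calls, and 9 to 13 without single arrays. Between EtOH_Rosi and EtOH, the 21 that rose became 4 and the 6 that fell 0 at 2-fold, and without single arrays they were 20 to 21 and 5 to 6. Between 4OHT_Rosi and 4OHT, the 20 that rose became 1 at 2-fold (16 to 20 without single arrays), and the 5 that fell became 3 with the replicate block, only those groups fitted or median centring and 1 at 2-fold (3 to 6 without single arrays). For the difference between rosiglitazone states, the count that was positive went from 0 to 1 with the trend, array weights, quantile normalization and both level filters (0 to 1 without single arrays), and the count that was negative from 1 to 2 with the trend, array weights and both level filters and to 0 with the replicate block or a 2-fold minimum (0 to 2 without single arrays). The cause of these changes was not tested, apart from the 2-fold minimum, which removes smaller differences by construction. The replicate block, for numbers that share no more than a label, otherwise gave 5 falls in place of 6, 13 in place of 12, 20 rises in place of 21 and 19 in place of 20. Of 73 calls of single genes, 53 held without each array in turn. Array signal limits what dim genes such as Car9 can show.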
